A study of Mus musculus with 6 samples.

Results

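The STAT proteins are transcription factors that wait in the cytoplasm, are phosphorylated by JAK kinases at an activated cytokine receptor, and then enter the nucleus as dimers. The 6 family genes described here, Stat2, Stat3, Stat4, Stat5a, Stat5b and Stat6, were taken by symbol from a table of 25124 mouse genes, and each was found once. Of these, 5 reached the minimum for testing (at least 1 TPM in at least 3 libraries), as did 11235 genes in all, and Stat4 did not. TPM is a transcript's read count scaled for its length and for the depth of the library.

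The cells were bone marrow-derived macrophages, BMDM, from wild-type C57BL/6 mice aged 8 weeks. Marrow was cultured for 7 days with M-CSF, the growth factor that drives macrophage differentiation, at 20 ng/ml. The 3 M0 libraries came from cells left in M-CSF alone, and the 3 M2 libraries from cells that also received interleukin-4 (IL-4) at 10 ng/ml. Both were harvested after 4 h, so that every cell, control or treated, was under M-CSF. The labels do not say whether the replicates are separate mice or cultures, so the p-values cover the spread between these libraries, which may be technical. All 12 macrophage markers examined were detected in both groups, and Csf1r, the M-CSF receptor gene, went from 674 ± 11.8 to 912 ± 1.97 TPM (mean ± SD over 3 libraries). Of the 12, 4 were higher in M2 and 6 lower at an adjusted p under 0.05. Over all tested genes 17.7% were higher and 45.3% lower. Among those that fell, Fcgr1 went from 127.5 to 20.55 TPM and Cd14 from 158.2 to 65.42 TPM. Reads recovered from the TPM came to between 16913185 and 19019896 per library.

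Each STAT protein is known for its own receptors. STAT6 is the factor activated by the IL-4 receptor and drives the genes of alternative macrophage activation. STAT2 joins IRF9 and a second STAT protein in the interferon-activated complex ISGF3. STAT3 carries signals of IL-6 and IL-10, STAT4 those of IL-12, mainly in T and NK cells, and the paralogs STAT5A and STAT5B those of GM-CSF and IL-3. In bulk RNA a lower value can mean fewer cells of a type or less transcript per cell, and these data do not separate the alternatives.

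The sequence upstream of 3 of the starts is given here because Stat2 and Stat6 carry the main changes and a second Stat4 start holds a motif match. They are the 250 bases before the start in RefSeq promoters of build GRCm38.p6, the assembly of the mm10 coordinates in the deposited tables. Capitals mark matches, on either strand, to an interferon response core (GAAA, any 2 bases, GAAA), to the palindrome bound by most STAT dimers (TTC, any 3 bases, GAA), or to the wider palindrome preferred by STAT6 (TTC, any 4 bases, GAA).

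Stat2, plus strand, chr10:128270248-128270497: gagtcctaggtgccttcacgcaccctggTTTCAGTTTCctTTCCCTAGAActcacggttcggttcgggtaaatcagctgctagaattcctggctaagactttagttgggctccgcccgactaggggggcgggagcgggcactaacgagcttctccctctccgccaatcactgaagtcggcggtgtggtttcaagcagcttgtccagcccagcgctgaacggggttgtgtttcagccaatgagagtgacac

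Stat4, second RefSeq start, plus strand, chr1:52007990-52008239: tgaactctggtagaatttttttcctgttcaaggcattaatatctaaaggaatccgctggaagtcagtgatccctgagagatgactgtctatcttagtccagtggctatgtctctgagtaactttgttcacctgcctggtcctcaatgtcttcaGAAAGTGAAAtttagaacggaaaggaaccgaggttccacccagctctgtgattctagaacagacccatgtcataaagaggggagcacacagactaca

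Stat6, plus strand, chr10:127642736-127642985: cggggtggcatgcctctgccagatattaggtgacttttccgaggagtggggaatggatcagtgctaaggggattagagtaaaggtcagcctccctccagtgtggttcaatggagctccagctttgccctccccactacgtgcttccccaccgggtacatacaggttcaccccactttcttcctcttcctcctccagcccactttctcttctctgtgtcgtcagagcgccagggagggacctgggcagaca

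Upstream of Stat2 the interferon response core read TTTCAGTTTC, at positions -222 to -213 from the start (minus strand), and next to it lay TTCCCTAGAA, a match to the wider palindrome, at -210 to -201. These matches did not overlap each other. The second Stat4 start, which is not the start of the transcript counted, held the interferon response core as GAAAGTGAAA at -97 to -88. The promoters at the counted starts of Stat3, Stat4, Stat5a, Stat5b and Stat6 held none of the 3 motifs in this window. Among 32851 RefSeq promoters of the same length, 2.98% held the interferon response core, 7.02% the palindrome with 3 bases between its arms and 5.85% that with 4. A match is a string of letters and was not tested as a binding site. The Stat5b promoter was the richest in G and C of the 6 at counted starts, with 82.0% and 40 CpG, against medians of 52.4% and 6 CpG over all promoters.

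Stat6 was the most abundant of the 6 in every library, and its transcript fell after IL-4. M0 libraries held 126, 130.5 and 119 TPM and M2 libraries 93.8, 92.4 and 94.6 TPM. Every M2 library lay below every M0 library, and the M2 values stood much closer together. The means were 125 ± 5.87 and 93.6 ± 1.11 TPM (SD, n = 3 each), so that the M2 mean was 25.3% lower. Fitted on log2(TPM + 1), the log2 fold change was -0.42 (SE 0.05, adjusted p = 2.27e-05). The median tested gene also stood at -0.15 on that scale, which makes the Stat6 difference -0.26 relative to it. After each library was divided by its median-ratio factor, so that the median gene stood at 0.00, the Stat6 value was -0.25 (adjusted p = 0.000727). Stat6 (NM_009284, 22 exons) lies on the plus strand of chromosome 10 from 127642986 to 127660987. Its last 70 bases overlap the end of Nab2, a corepressor gene on the opposite strand that rose from 33.1 ± 3.89 to 45.8 ± 1.18 TPM. The kit named in the labels is not described as strand-specific, so reads in that stretch could belong to either gene.

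Stat2 had the largest fall among the 5 tested genes. M0 libraries held 58.5, 57.9 and 48.1 TPM and M2 libraries 30.3, 30.4 and 32.3 TPM. The groups did not overlap, although M0 replicate 3 lay well below the other M0 libraries. The mean dropped from 54.9 ± 5.85 to 31.0 ± 1.08 TPM (SD, n = 3 each), a reduction of 43.5%, and the fitted log2 difference was -0.80 (SE 0.07, adjusted p = 6.22e-06). It was -0.63 after median scaling (adjusted p = 4.63e-05). Only 7.73% of tested genes had a lower log2 fold change than Stat2. Stat2 (NM_019963, 24 exons) lies on the plus strand of chromosome 10 from 128270498 to 128292853. Its first 753 bases lie inside the span of Apof, an apolipoprotein gene on the same strand, which fell from 4.55 ± 0.526 to 2.80 ± 0.207 TPM.

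For Stat2, M0 replicate 3 lay below the other M0 libraries by more than counting error. Stat2 had 3986, 3901 and 3061 reads in the M0 libraries, and the variance among them was 40.4 times the counting variance, against 2.66 times in M2. The same ratio in M0 and M2 was 15.2 and 0.783 for Stat6, 8.94 and 2.17 for Stat5b, 4.56 and 0.198 for Stat4, and 1.72 and 0.175 for Stat5a. A wider spread in M0 was not limited to STAT genes. Every macrophage marker examined had a larger SD in M0 than in M2, among them Adgre1 (43.7 and 8.83 TPM) and Cd68 (52.5 and 3.30 TPM). Stat4, Stat5b and Stat6 were also lowest, among M0 libraries, in replicate 3, and Stat5a was highest there. Stat3 was lowest there by little (35.5, 34.7 and 34.4 TPM), with a variance in M0 of 0.640 times the counting variance. After median scaling Stat3 was lowest in M0 replicate 2 (33.7, 31.7 and 32.9). The summed TPM of 22 interferon-induced genes was also lowest in M0 replicate 3, at 1240, 1155 and 1057 in M0 replicates 1, 2 and 3. The sums of STAT cofactors (418.8, 447.3 and 396.2) and of macrophage markers (17760, 18430 and 17340) were lowest there too. Irf9 stands on both the cofactor and the interferon-induced list, and Lyz2 (13563, 14318 and 13350 TPM) makes up most of the macrophage sum. Sums of some other gene lists were not lowest in M0 replicate 3, such as that of STAT3 targets (986.2, 906.9 and 955.8). Whether these differences share a source was not tested. Without M0 replicate 3 the log2 fold change of Stat2 was -0.89 and that of Stat6 was -0.45.

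Stat4 was scarce in both groups and lower in M2. M0 libraries held 0.942, 0.878 and 0.398 TPM and M2 libraries 0.207, 0.152 and 0.162 TPM, with no overlap between groups. These values rest on 38, 35 and 15 reads in M0 and on 8, 6 and 7 reads in M2. The read ratio of M0 to M2 was 4.31, with a 95% exact interval from 2.66 to 7.31 that covers counting error only. Because Stat4 missed the minimum for testing, it was fitted only among all 18512 genes with any read. There its log2 fold change came to -0.55 with an SE of 0.13 (adjusted p = 0.010), and 27.4% of those genes passed as lower and 12.0% as higher. Tested alone, its TPM gave p = 0.10 in an exact two-sided permutation test, the smallest value that 3 against 3 libraries allow. T and NK cell markers summed to between 1.86 and 2.70 TPM in M0 and between 1.53 and 1.99 TPM in M2. Of those 15 markers, Cd8a and Gzma were at 0 in all libraries, and only Cd4, which made up most of the sum at 1.52 and 1.10 TPM, reached the minimum for testing (adjusted p = 0.0314, and 0.132 after median scaling). Of the others, Cd3e averaged 0.0453 TPM in M0 and 0.0463 TPM in M2, Cd2 0.137 and 0.249 TPM, and Klrb1c 0.137 and 0.0257 TPM. The part of such cells in the Stat4 values was not tested. The counted transcript, NM_001308266, lies on the plus strand of chromosome 1 from 51987148 to 52107189 and has 25 exons.

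Stat3 changed as much as the median gene did. M0 libraries held 35.5, 34.7 and 34.4 TPM and M2 libraries 32.0, 30.8 and 31.0 TPM, so that the groups did not overlap. The means of 34.9 ± 0.577 and 31.3 ± 0.656 TPM (SD, n = 3 each) gave a fitted log2 difference of -0.15 (SE 0.05, adjusted p = 0.0159), equal to that of the median tested gene at -0.15. After median scaling it was 0.01 (95% interval -0.09 to 0.12, adjusted p = 0.855), and the groups overlapped. The call also ended without M2 replicate 2 (-0.14, adjusted p = 0.0702) and without M2 replicate 3 (-0.15, adjusted p = 0.0672). The variance among replicates was 0.640 times the counting variance in M0 and 0.925 times in M2. Stat3 (NM_213660, 24 exons) lies on the minus strand of chromosome 11 from 100886806 to 100939540.

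Stat5a lies between Stat3 and Stat5b on chromosome 11, and neither Stat5a nor Stat5b passed the test on TPM as deposited. Stat5a had 12.9, 13.0 and 14.1 TPM in M0 and 14.6, 14.3 and 14.7 TPM in M2, with no overlap. Its log2 fold change was 0.12 (95% interval -0.01 to 0.26, adjusted p = 0.104). It passed after median scaling, at 0.28 (adjusted p = 0.00315), and in a count-weighted fit on recovered reads (limma-voom), at 0.18 (adjusted p = 0.0225). Stat5b had 17.7, 19.0 and 16.0 TPM in M0 and 16.7, 17.2 and 15.8 TPM in M2, and the groups overlapped. Its log2 fold change was -0.08 (95% interval -0.23 to 0.08, adjusted p = 0.369), and 0.08 after median scaling (95% interval -0.05 to 0.22, adjusted p = 0.268).

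The ratio of Stat5b to Stat5a compares the paralogs within a library, where scaling cancels. It was 1.38, 1.46 and 1.14 in M0 and 1.15, 1.198 and 1.07 in M2. M0 replicate 3 lay inside the M2 range, and the difference of -0.21 in mean log2 ratio did not pass (exact two-sided permutation p = 0.30, where 0.10 is the smallest possible). Stat5b was above Stat5a in all 6 libraries. Stat5a (NM_001164062, 18 exons) lies on the plus strand from 100860484 to 100885169, and Stat5b (NM_001113563, 19 exons) on the minus strand from 100780731 to 100850581, with 9902 bases between them.

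Stat5a and Stat5b are alike enough for short reads to fit both. Their coding sequences matched at 90.7% of 2294 aligned bases, whereas every other pair of the 6 matched at between 54.0% and 61.3%. Of all 50-base windows, 17.1% of those in the Stat5a transcript also occurred in Stat5b, and 12.13% the other way round. No other pair shared a window. The longest identical run was 324 bases, from coding base 571 to 894 in both. Reads that lie wholly within it cannot be assigned to either, so the levels of both genes are uncertain to that extent. The most different stretch of 120 aligned bases, coding bases 45 to 164, is printed to show where they can be told apart, with the 33 differing bases in capitals.

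Stat5a: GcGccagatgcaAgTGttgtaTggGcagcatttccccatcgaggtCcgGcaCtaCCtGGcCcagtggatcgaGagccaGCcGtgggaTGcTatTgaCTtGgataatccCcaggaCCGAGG

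Stat5b: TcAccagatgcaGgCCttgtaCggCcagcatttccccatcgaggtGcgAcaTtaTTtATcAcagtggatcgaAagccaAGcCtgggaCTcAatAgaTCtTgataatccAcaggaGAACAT

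**Figure D1:**
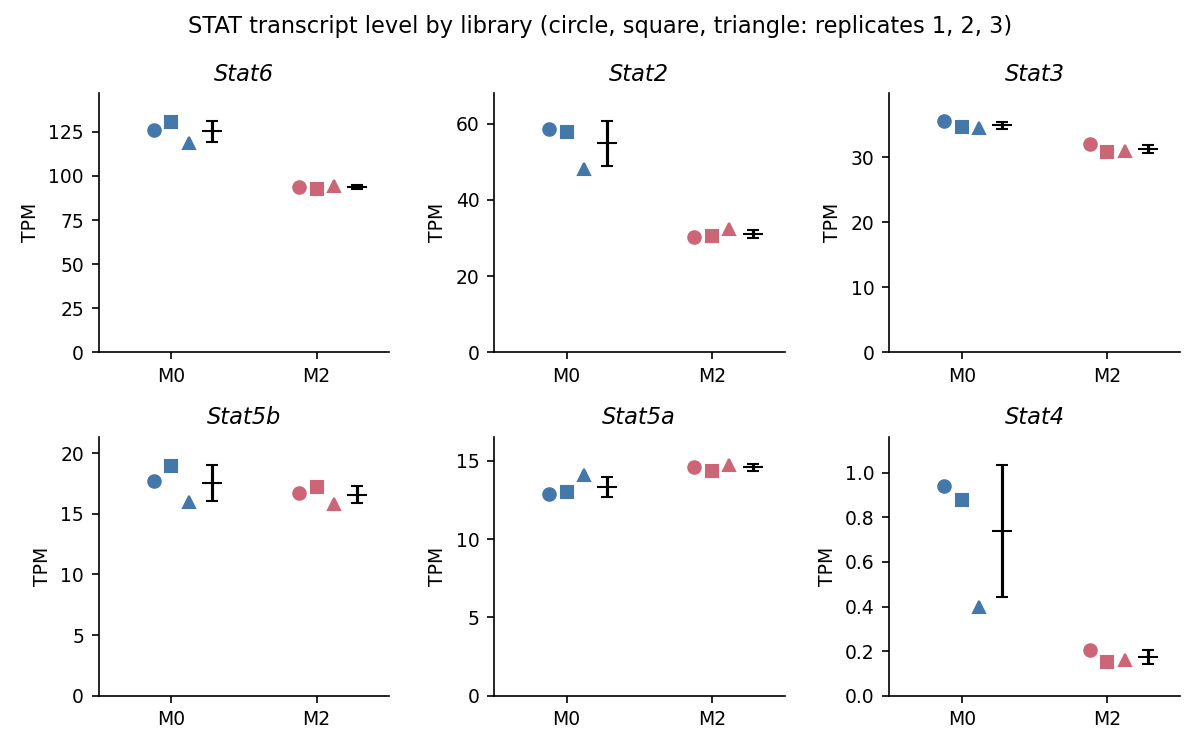
TPM of each gene (vertical axis, from 0) in the 3 M0 and 3 M2 libraries, with mean and SD beside the points. Stat6 and Stat2 separate clearly by group, Stat4 stays below 1 TPM, and Stat5b overlaps between groups.

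Among the 5 tested genes, 3 were lower in M2 (Stat2, Stat3 and Stat6) and 0 were higher, where 45.3% of all tested genes were lower and 17.7% higher. The test was limma-trend, and at an unadjusted p under 0.05 the count of higher genes was also 0. The median log2 fold change of the 5 was -0.15, as was that of all tested genes. After median scaling 2 were lower (Stat2 and Stat6) and 1 was higher (Stat5a), where 28.4% of all tested genes were lower and 28.7% higher. In the voom fit 2 were lower and 1 was higher, where 41.1% of all tested genes were lower and 20.7% higher.

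The authors' deposited table of the comparison gave 3 lower and 1 higher, where 16.6% of its 18516 genes with a fold change were lower and 17.2% higher. In the authors' deposited table the log2 fold changes were -0.65 for Stat2 (adjusted p = 4.41e-19), -0.25 for Stat6 (adjusted p = 2.19e-06) and -1.54 for Stat4 (adjusted p = 0.000349). Stat5a stood at 0.32 (adjusted p = 0.000381), Stat3 at 0.01 (adjusted p = 0.90) and Stat5b at 0.09 (adjusted p = 0.356) in the authors' deposited table. That table counted longer transcripts for Stat4 (NM_011487, 2964 bases against 2635) and for Stat5a (NM_011488, 3866 bases against 3586).

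**Figure D2:**
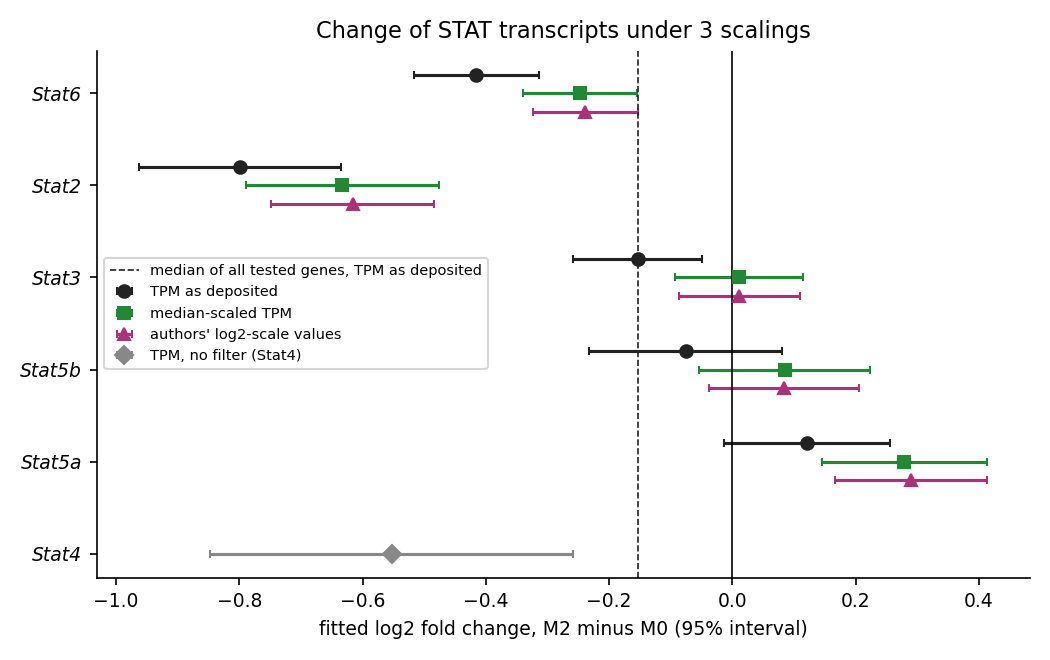
Fitted log2 fold change of each gene (horizontal axis, M2 minus M0) with its 95% interval on TPM as deposited, after median scaling and on the authors' log2-scale values, and for Stat4 from the unfiltered fit. Stat2 and Stat6 stay below 0 in all 3, Stat3 moves from the dashed line (median gene, -0.15) to 0.01, Stat5b turns from -0.08 to 0.08, and Stat5a moves from 0.12 to 0.28.

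**Figure D3:**
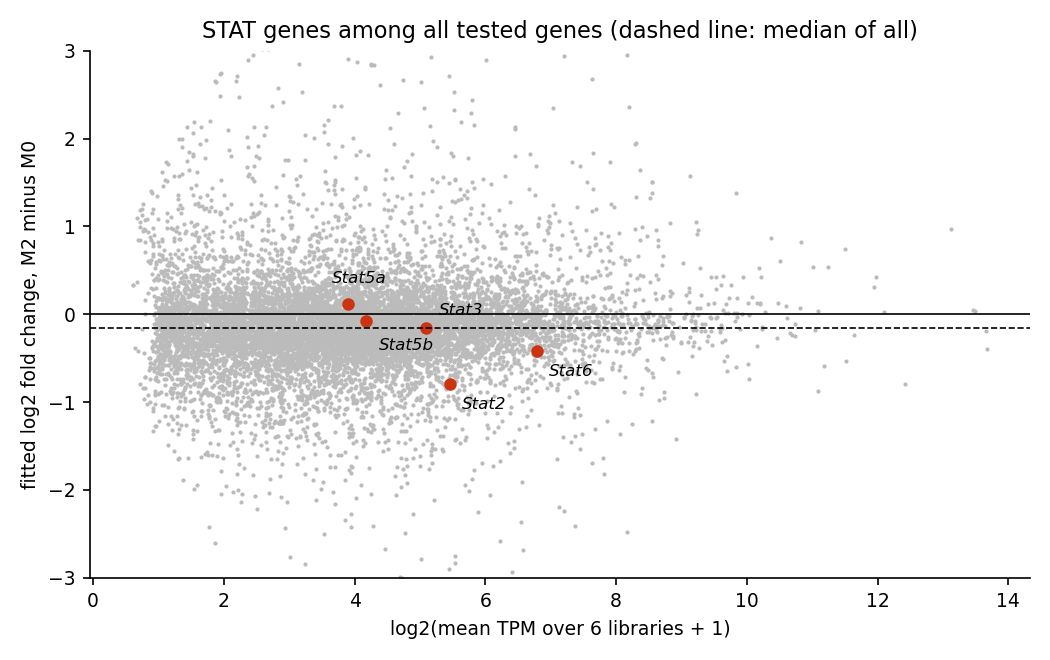
Fitted log2 fold change (vertical axis) against mean level (horizontal axis, log2 scale) for the 11235 tested genes in grey, with 5 STAT genes in red. Stat3 lies on the dashed median line and Stat2 lowest of the 5, and 57 genes lie beyond the limits of 3 on the vertical axis.

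The order of the levels was partly the same in both groups. In M0 it ran Stat6, Stat2, Stat3, Stat5b, Stat5a and Stat4, with no overlap between neighbours. In M2, Stat2 (30.3 to 32.3 TPM) and Stat3 (30.8 to 32.0 TPM) overlapped, while the other neighbours did not. Over all 6 libraries Stat6 ranked 815 of the 11235 tested genes by mean TPM, Stat2 ranked 2236, Stat3 2879, Stat5b 4839 and Stat5a 5527.

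The 6 genes together summed to 252, 256 and 232 TPM in M0 and to 188, 185 and 188.5 TPM in M2, without overlap. The difference in means was -59.45 TPM as deposited (exact two-sided permutation p = 0.10, the smallest possible) and -33.75 TPM after median scaling. Most of the fall as deposited lay in Stat6 (125 to 93.6 TPM) and Stat2 (54.9 to 31.0 TPM). Stat6 made up about the same part of that sum in both groups, 50.8 ± 0.581% and 49.99 ± 0.159% (SD, n = 3 each). The share of Stat2 went from 22.2 ± 1.30% to 16.6 ± 0.489%. Those of Stat3 (14.2 ± 0.644% to 16.7 ± 0.326%), Stat5a (5.42 ± 0.563% to 7.78 ± 0.0444%) and Stat5b (7.12 ± 0.260% to 8.86 ± 0.437%) were higher in M2, with no overlap between groups. Shares of one sum are bound to each other, and a loss in one raises the rest.

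**Figure D4:**
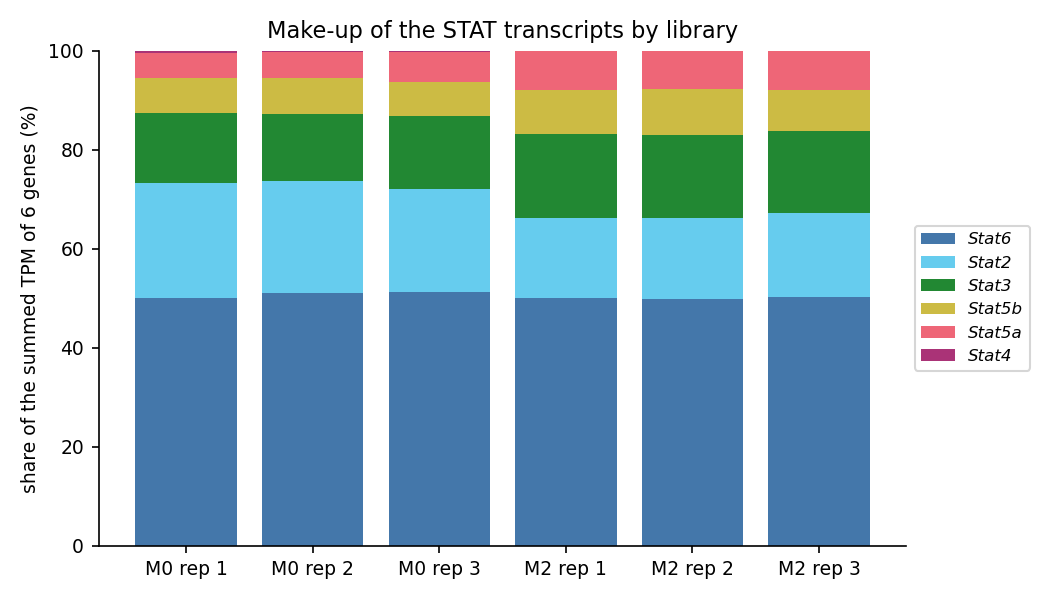
Share of each gene in the summed TPM of the 6 (vertical axis, percent) for each library. Stat6 takes between 49.9% and 51.3% in every bar, while the Stat2 part is smaller in the 3 M2 bars.

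Upstream of the STAT proteins, the IL-4 receptor chains and JAK kinases moved in both directions. Of 7 tested, 3 were higher, 2 lower and 2 did not pass, and after median scaling 3 were higher and 1 lower. Beside these and the counts of the other lists stand the shares over all tested genes, 17.7% higher and 45.3% lower, or 28.7% and 28.4% after median scaling. The kinase genes Jak2 (12.0 to 40.2 TPM, log2 fold change 1.67), Jak1 (75.8 to 91.8 TPM, 0.28) and Tyk2 (26.3 to 30.3 TPM, 0.20) rose, and Jak3 stood at 14.6 and 14.4 TPM (-0.02, adjusted p = 0.757). Il13ra1, a receptor chain shared by IL-4 and IL-13, fell from 3.34 to 1.02 TPM. Il4ra fell from 76.0 to 68.1 TPM but stood at 0.01 after median scaling. Il2rg, the common gamma chain gene, had 53.4 and 50.02 TPM (-0.09, adjusted p = 0.139), and Il13ra2 was below 0.1 TPM in both groups.

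Of 8 tested receptor genes linked to STAT3, 7 rose and 1 fell, with the same counts after median scaling, where 17.7% of all tested genes were higher on TPM as deposited and 28.7% after scaling. Il6st, the gp130 chain shared by IL-6 family cytokines, rose from 31.9 to 142 TPM, and Csf3r, the G-CSF receptor gene, from 6.35 to 25.6 TPM. Il27ra went from 1.35 to 4.29 TPM, and Il21r fell from 41.3 to 21.3 TPM. Of 6 tested STAT5-linked receptor genes, 4 rose, 1 fell and 1 did not pass, and after median scaling 4 rose and 0 fell, against the same shares over all genes. The gene that fell before scaling was Il7r (-0.22). The shared beta chain gene Csf2rb rose from 110.5 to 369 TPM, its near copy Csf2rb2 from 122 to 214 TPM, Csf2ra from 174 to 295 TPM and Il3ra from 28.8 to 47.7 TPM. Reads could have been split between Csf2rb and Csf2rb2. Of 3 tested receptor genes linked to STAT2 or STAT4, the interferon receptor chain gene Ifnar1 fell from 42.4 to 26.6 TPM, Ifnar2 rose from 127 to 141 TPM and Il12rb2 did not pass (2.33 and 2.69 TPM).

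Of 18 inhibitors of STAT signalling, 6 were higher, 6 lower and 6 did not pass, where 17.7% of all tested genes were higher and 45.3% lower. After median scaling 8 were higher and 3 lower, against 28.7% and 28.4% of all genes. Cish and Socs2 reached 1 TPM in M2 libraries only, so that the filter fixed their direction. Of the other 16, 4 were higher and 6 lower on TPM as deposited. Cish rose from 0.0893 to 32.4 TPM, Socs1 from 4.72 to 138 TPM and Socs2 from 0.503 to 19.2 TPM, and Socs6 rose from 8.18 to 19.2 TPM (log2 fold change 1.14). Socs3, the inhibitor that STAT3 induces, stood at 1.09 and 0.977 TPM (-0.07, adjusted p = 0.650). Of 13 cofactors and partners, 2 were higher, 7 lower and 4 did not pass, and after median scaling 3 were higher and 4 lower. The counts lie near the shares over all tested genes, 17.7% higher and 45.3% lower. Irf9, the DNA-binding partner of STAT2 in ISGF3, fell from 41.5 to 21.2 TPM (-0.94, against -0.80 for Stat2). Parp14, which encodes a STAT6 coactivator, fell from 72.0 to 32.1 TPM, while Snd1, which encodes another, rose from 70.5 to 97.9 TPM. The deacetylase gene Hdac1 and the repressor gene Bcl6 fell with log2 fold changes of -0.76 and -0.64.

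All 22 tested interferon-induced targets of the STAT2 complex were lower, also after median scaling, where 45.3% of all tested genes were lower as deposited and 28.4% after scaling. Of these, 3 reached 1 TPM in M0 libraries only, so that the filter fixed their direction, and the other 19 were all lower too. Ifit3, Cxcl10, Ifit1 and Rsad2 had the largest changes, with Ifit3 at 77.5 and 2.61 TPM. Cxcl10, at 27.6 and 0.770 TPM, is among the 3 whose direction the filter fixed. Of 19 tested STAT6 targets, 8 reached 1 TPM in M2 libraries only, so that the filter fixed their direction. Of the other 11, 10 were higher and 1 was lower, the chemokine gene Ccl2 (351 to 99.0 TPM), where 17.7% of all tested genes were higher and 45.3% lower. The largest log2 fold changes were those of Retnla and the lectin gene Mgl2, both among the 8, and of Chil3 (3.61 to 2900 TPM) and Arg1 (1.55 to 1009 TPM).

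Of 20 STAT3 targets, 6 were higher, 9 lower and 5 did not pass, where 17.7% of all tested genes were higher and 45.3% lower. Of these targets, 1 reached 1 TPM in M0 libraries only, so that the filter fixed its direction. Without it 6 were higher and 8 lower of 19. The list's median was -0.04, against -0.15 over all. After median scaling 9 were higher and 8 lower, and the median was 0.09. Nfil3 (3.38 to 62.7 TPM) and the kinase gene Pim1 (22.9 to 67.6 TPM) rose, while Bcl2l1, an inhibitor of cell death, fell from 96.4 to 19.5 TPM and Il1rn from 54.6 to 16.2 TPM. Of 14 tested STAT5 targets, 3 were higher (Cish, Socs2 and Pim1), 8 lower and 3 did not pass, near the same shares over all genes. After median scaling 4 were higher and 8 lower, where 28.7% and 28.4% of all genes were. Without the 3 that reached 1 TPM in 1 group only, 1 was higher and 7 lower of 11. Id1, an inhibitor of helix-loop-helix factors, fell from 75.7 to 9.27 TPM. Several genes, such as Cish, Pim1 and Bcl2l1, stand on more than one of these lists. Of 10 STAT4 targets only 5 were tested, of which 4 were higher, also after median scaling, against 17.7% and 28.7% of all tested genes. They were Hlx (23.2 to 81.5 TPM), Gadd45b (18.3 to 44.2 TPM), Ets1 (1.45 to 3.67 TPM) and Furin (53.3 to 79.3 TPM), while Ifng and Tbx21 were below 0.1 TPM.

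**Figure D5:**
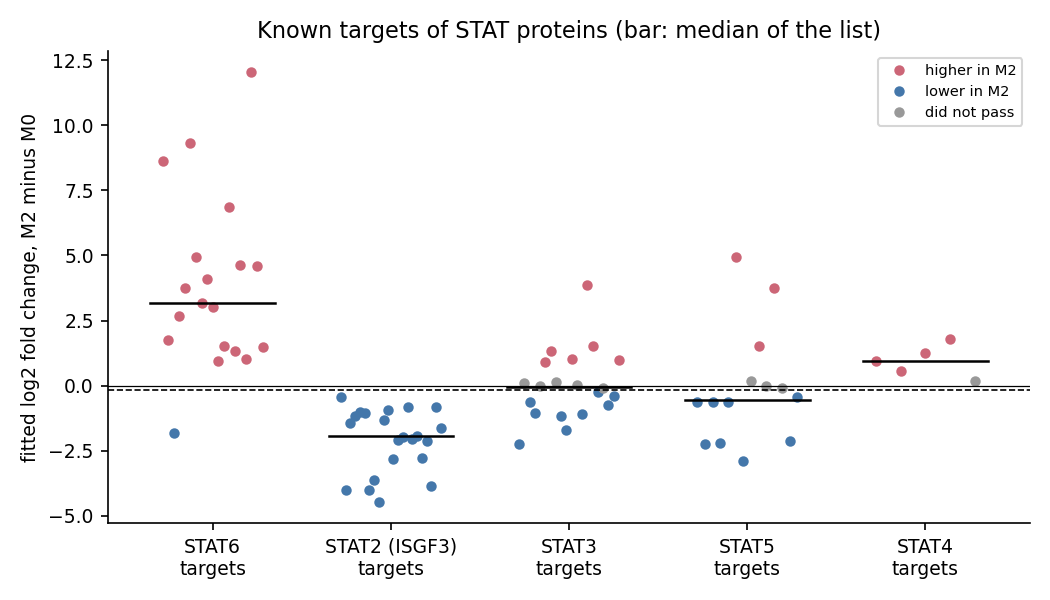
Fitted log2 fold change (vertical axis) of the tested genes on 5 lists of STAT targets, coloured by call, with a bar at each median and a dashed line at the median of all tested genes; it includes the genes whose direction the filter fixed. The STAT2 complex targets all lie below 0, the STAT6 targets lie above 0 except Ccl2, and the STAT3 and STAT5 lists lie on both sides.

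The genes closest to each member in pattern were found by Euclidean distance between 6-library profiles of log2(TPM + 1), centred on each gene, among 6576 genes with a mean of at least 10 TPM. Closest to Stat2 were Fbxw17 (distance 0.0812), Reps1 (0.0975) and Ms4a6c (0.133). Closest to Stat6 were Slc6a6 (0.0407), Pnp (0.0445) and Gosr2 (0.0491). Stat3 was nearest to Tomm34, Kif1c and Mark2, with distances from 0.0264 to 0.0307, Stat5a to D17H6S53E, Naxd and E230016M11Rik (0.0455 to 0.0539), and Stat5b to Rchy1, Pcif1 and Antxr2 (0.0431 to 0.0620). All profiles come from the same 6 libraries, and no test was made of them.

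Genes next to the STAT genes went in both directions. Lrp1, the left neighbour of Stat6 and a lipoprotein receptor gene, fell from 324 ± 23.8 to 139 ± 4.51 TPM, while Cavin1, on the other side of Stat3 from Stat5a, rose from 4.29 ± 0.618 to 7.72 ± 0.896 TPM. Ghdc beside Stat5b fell from 14.4 ± 0.897 to 10.9 ± 0.344 TPM. Apon and Il23a on either side of Stat2 and 1700012D01Rik to the right of Stat6 were below 1 TPM in both groups.

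Markers of other cell types were detected at the following levels. Those of B cells summed to at most 2.03 TPM, those of mast cells and basophils to at most 0.497 TPM, those of stroma and endothelium to at most 20.5 TPM and those of neutrophils to at most 67.9 TPM in any library. Dendritic cell markers summed to between 2.61 and 2.91 TPM in M0 and between 50.3 and 52.1 TPM in M2, of which the transcription factor gene Batf3 gave 2.12 and 49.6 TPM. Of 6 tested neutrophil markers 1 was higher (Csf3r, 6.35 and 25.6 TPM) and 0 lower, where 17.7% and 45.3% of all tested genes were. The other 5 did not pass, among them S100a8 (14.6 and 13.1 TPM) and S100a9 (15.0 and 13.9 TPM). Among markers of endothelium Pecam1 had 0.407 and 10.4 TPM and Kdr 2.78 and 0.218 TPM. The part of these markers in the STAT values was not tested.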

How the data were processed

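The 6 members and all gene lists were chosen with earlier results of these data known. Exonic reads over mm10 transcripts were counted by HOMER with 1 transcript kept per gene, per the file headers, and the authors deposited them as TPM per library. STAR, bcl2fastq, HOMER 4.11.1 and DESeq2 are named in the submitters' processing notes, with no settings given in the sources used here. The authors' deposited comparison table adds log2-scale values per library and, for each gene, a log2 fold change with its raw and adjusted p-value. Its transformation is not named, and its fold change is M2 minus M0, as checked against the group means.

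TPM times transcript length gave whole multiples of a step in each library, from which reads were recovered (within 0.1 read for 99.8% to 99.9% of nonzero values). Commas in the annotation had shifted 3 entries, which were realigned. TPM is not a count, so genes were tested two-sided by limma-trend (version 3.58.1 of limma in R 4.3.3, with robust moderation) on log2(TPM + 1) over all genes with at least 1 TPM in at least 3 libraries. Calls needed a Benjamini-Hochberg adjusted p under 0.05. Fold changes on this scale understate changes of low genes. The deposited TPM summed to between 548159.9 and 553185.9 in M0 libraries and between 542749.0 and 543854.2 in M2 libraries. Median scaling divided each library by a factor from 0.946 to 1.09.

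Named genes were all members, every IL-4 receptor and JAK gene, up to 4 called genes with the largest change per pathway list, the 3 closest profiles per member, and neighbouring or overlapping genes. Socs3, Ccl2, Ifng, Tbx21, Il7r, Il12rb2, Snd1 and the named markers were chosen after their values were seen. Of the neighbours, 2 are not reported here. Whether counting used strand is not given in the sources used here. Exon counts and coding sequences are from GENCODE M21 transcripts matched by RefSeq identifier for all 6. Python 3.11.15 with scipy 1.17.1 was used for permutation tests and tables.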

Additional observations from a re-analysis of the deposited data

How the results depend on the processing

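The falls of Stat2 and Stat6 kept their direction and passed under all 14 alternatives each: a pseudocount of 0.1 or 5, dropping the filter or asking for 50 recovered reads, the replicate block, leaving out each library, median scaling, voom on recovered reads and the authors' log2-scale values. Changing the filter or adding the block leaves the log2 fold change as it was by construction, so that only the p-value could move there. Stat3 turned to 0.01 (0.01105) with median scaling and 0.01 (0.01149) on the authors' log2-scale values, and missed the threshold in voom at -0.11. Its leave-one-out range was -0.17 to -0.14. By construction, median scaling removes the shift of -0.15 in the median gene. Stat5b, which never passed, turned to 0.08 (0.08478 and 0.08426) under the same pair of settings. Stat5a passed at 0.28 with median scaling, 0.18 in voom and 0.29 on the authors' log2-scale values. Among the fits run here, Stat4 passed only without the filter (-0.55), the only fit that held it. It also passed in the authors' deposited comparison (-1.54). The count of higher genes was 1 with median scaling, voom, the authors' log2-scale values and the authors' deposited adjusted p, the last chosen after seeing the data. The difference in summed TPM was -33.75 after median scaling against -59.45 as deposited, by construction of the factors (above 1 in M0, below 1 in M2).

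Same-numbered libraries showed no shared deviation (correlations of deviations from group means of -0.043 to 0.005). The labels do not say whether equal numbers share marrow, and these values cannot settle it. With the replicate block 3 genes were lower, as without it. In this balanced design the block cannot change the log2 fold change, only its error. For Stat6 the adjusted p of limma-trend was 8.55e-05 with the block and 2.27e-05 without it. Depth limits Stat4, with 88 reads in M0 and 21 in M2. Count models planned for raw reads were left out, the values being TPM.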
